A study of Mus musculus with 60 samples.

Results

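Potassium channel genes were followed in the prefrontal cortex of young mice. The 81 genes described here are the protein-coding genes whose symbol begins with Kcn and whose mean over the 60 libraries was at least 10 normalized counts (a library's reads for a gene divided by that library's size factor), of 18088 genes in all. The annotation holds 94 protein-coding Kcn genes, of which 83 were among the genes measured. The 2 that fell just under the threshold were Kcnj15, with a mean of 7.29, and Kcnn4, with 8.61, while the lowest members were Kcnj5, with 10.1, and Kcnrg, with 11.7. By name, 15 members belong to Kcna to Kcnd, 8 to Kcnh, 13 to Kcnj, 11 to Kcnk, 5 to Kcnq and 4 to Kcnma and Kcnn, and 25 to other families, and all 81 passed the filter on low values.

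The study crossed 2 genotypes of Trip12, which encodes a ubiquitin ligase, with 3 treatments and both sexes in C57BL/6J mice, with 5 libraries in each of the 12 groups. Mice labelled HT (heterozygous) or WT (wild type) were nursed by dams given vehicle, fluoxetine (a selective serotonin reuptake inhibitor) or lithium (a mood stabiliser), so that exposure came by milk on postnatal days 3 to 24, and tissue was taken on day 25. The labels do not describe the Trip12 allele or name litters. The p-values therefore rest only on how these libraries varied, and part of that may be technical. Drugs were given to dams, so pups of a shared dam are not independent in the drug comparisons. Without litter names the fits treated each library as independent, and the p-values of the drug comparisons may be too small. The comparisons ask how the channel genes differed with genotype, with each drug and between the drugs.

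Library depth ran from 25.1 to 36.6 M reads (M, mega). Fluoxetine libraries (32.7 to 36.6 M) were all deeper than vehicle libraries (26.6 to 31.0 M), lithium females held 32.1 to 35.9 M and lithium males 25.1 to 33.5 M. Trip12 itself was not lower in the libraries labelled HT: its normalized count was 5489 to 6953 in them (median 6272, n = 30) and 4394 to 6362 in WT (median 5812, n = 30), a difference of +0.11 ± 0.02 on the log2 scale (SE; limma adjusted p = 0.00137). Directions drawn between genotypes below therefore rest on the labels. All 7 cortical marker genes examined were expressed in all libraries (Slc17a7, the vesicular glutamate transporter of cortical excitatory neurons, at 36450 to 55987 normalized counts), but 6 olfactory bulb markers also varied widely, their summed normalized count running from 314 to 11946. In bulk tissue, fewer cells of a type and less RNA per cell cannot be told apart.

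Potassium channels let potassium leave neurons and glia down its gradient and so set the resting potential, end the action potential and space out firing. Voltage-gated channels (Kcna to Kcnd, Kcnh, Kcnq) open on depolarization, inward rectifiers (Kcnj) and two-pore leak channels (Kcnk) hold the resting potential, and the channels of Kcnma1 and Kcnn open when calcium enters. In cortex, Kv3 channels (Kcnc) allow fast firing of parvalbumin interneurons, and astrocytes buffer potassium through Kir4.1 (Kcnj10).

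The sequences just upstream of 4 inward rectifier genes are shown because these genes moved in different directions with the drugs, as described below. Kcnj2, Kcnj12 and Kcnj4 encode the strong inward rectifiers Kir2.1, Kir2.2 and Kir2.3, and Kcnj3 encodes GIRK1 (Kir3.1), a channel opened by G proteins. Each sequence is the 250 bases before the RefSeq transcript start, written in the direction of the gene, from build GRCm38.p6. They lie at chr11:111065914-111066163 (+), chr11:61065554-61065803 (+), chr15:79505242-79505491 (-) and chr2:55435720-55435969 (+). Capitals mark matches, on either strand, to the GC box GGGCGG (reverse complement CCGCCC) and the E-box CACGTG.
Kcnj2: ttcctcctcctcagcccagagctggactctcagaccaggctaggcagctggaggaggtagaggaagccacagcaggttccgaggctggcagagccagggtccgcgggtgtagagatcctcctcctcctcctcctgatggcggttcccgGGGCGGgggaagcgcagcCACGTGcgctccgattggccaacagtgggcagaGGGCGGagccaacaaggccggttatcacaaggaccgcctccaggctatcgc
Kcnj12: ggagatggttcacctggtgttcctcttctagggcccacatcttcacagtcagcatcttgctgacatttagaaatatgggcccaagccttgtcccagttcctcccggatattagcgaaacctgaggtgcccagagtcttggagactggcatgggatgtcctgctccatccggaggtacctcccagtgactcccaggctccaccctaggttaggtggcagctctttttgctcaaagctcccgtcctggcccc
Kcnj4: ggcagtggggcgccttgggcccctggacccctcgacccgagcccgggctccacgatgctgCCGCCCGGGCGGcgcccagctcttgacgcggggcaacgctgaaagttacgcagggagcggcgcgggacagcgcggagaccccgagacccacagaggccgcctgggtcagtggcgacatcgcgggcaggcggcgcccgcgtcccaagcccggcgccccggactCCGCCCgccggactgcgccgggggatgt
Kcnj3: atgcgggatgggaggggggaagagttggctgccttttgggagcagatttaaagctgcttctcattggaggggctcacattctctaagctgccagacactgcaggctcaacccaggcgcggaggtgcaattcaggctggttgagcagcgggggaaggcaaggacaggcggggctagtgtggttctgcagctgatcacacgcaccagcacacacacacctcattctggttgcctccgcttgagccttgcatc
The Kcnj2 window held 2 GC boxes and 1 E-box, the Kcnj4 window held 3 GC boxes, and none was found in the Kcnj12 and Kcnj3 windows. Over all 32851 promoter windows of this length 32.7% held a GC box and 6.02% an E-box, and of 81 windows that belong to 58 members 38 held a GC box and 5 an E-box. The cyclic AMP response element TGACGTCA was in none of the members' windows and in 1.55% of all windows, and the letters TATAAA were in 3 and in 12.4%. The G+C content was 65.6% before Kcnj2, 56% before Kcnj12, 77.2% before Kcnj4 and 58.4% before Kcnj3. The Kcnj12 window lies inside the span that the gene annotation gives that gene (chr11:61022564-61071131), and the other 3 windows end at the annotated gene start.

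Levels were compared between genes as normalized counts per kb of exon. The members held 0.588% of all counts, and their median level, 150 per kb, lay above the median of all genes (95.5 per kb). Among inward rectifiers the highest levels per kb were those of Kcnj4 (1723, the highest of all members), of Kcnj9, which encodes GIRK3 (1155), and of Kcnj10 (939), and the lowest was that of Kcnj5 (2.16). Kcnk1, which encodes TWIK1, led the leak channels at 1226 per kb, ahead of Kcnk9 (TASK3) at 522 and Kcnk2 (TREK1) at 279, with Kcnk15 lowest at 7.28. In the Kv1 to Kv4 families Kcna2 (Kv1.2) and Kcnc4 (Kv3.4) stood at 728 and 670 per kb, and Kcna5 was lowest at 60.9. Kcnh3 (826), Kcnh1 (466) and Kcnh7 (357) led the ether-a-go-go family, in which Kcnh8 was lowest at 3.62. The M-current genes Kcnq3 and Kcnq5 were at 482 and 413 per kb, against 8.62 for Kcnq1, better known from heart and inner ear. The large-conductance channel Kcnma1 (622) stood above the small-conductance channels Kcnn2 (146), Kcnn1 (114) and Kcnn3 (75.9). Among other members the auxiliary subunit Kcnab2 (1643), the silent subunit Kcnf1 (1258) and the calcium-binding Kcnip3 (1165) were highest and Kcnmb1 (4.67) lowest. The summed level of all members per kb differed little between groups: the 12 group means ran from 26986 to 28454.

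**Figure D1:**
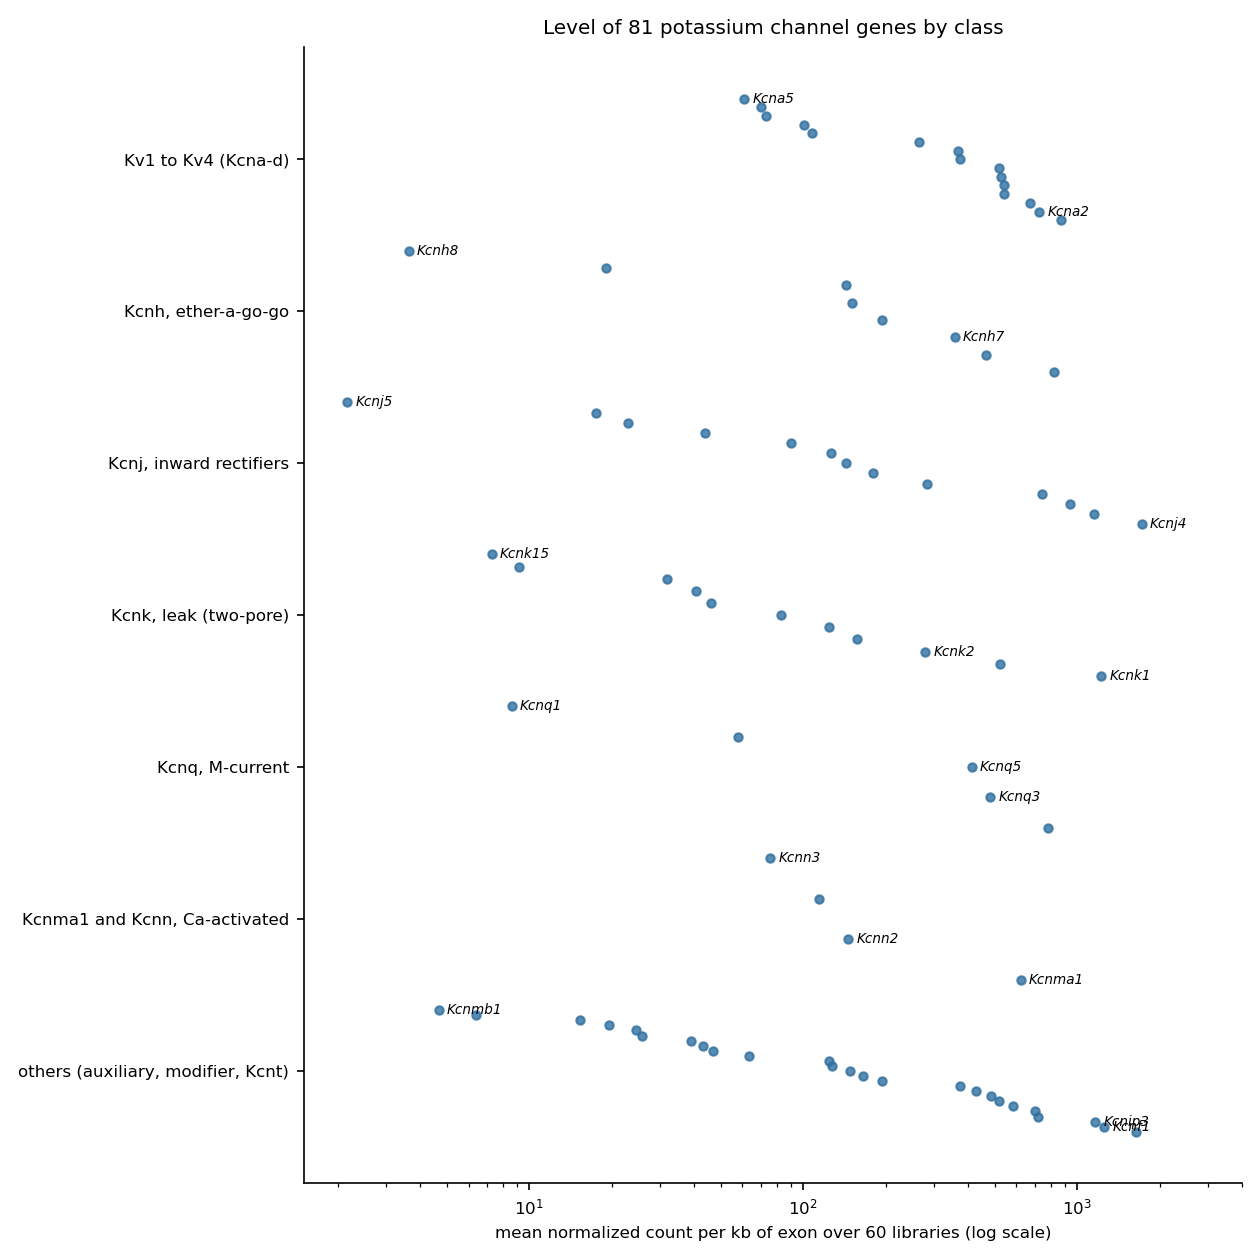
Mean level of each of the 81 genes over 60 libraries in normalized counts per kb of exon (horizontal, log scale) by class (vertical); each point is a gene, and the lowest of each class is named, as are those of its 3 highest that were called with a drug or between the drugs. Levels run from 2.16 for Kcnj5 to 1723 for Kcnj4, and the highest gene of every class lies at 622 or above.

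Spread among libraries of a group was small for most members: its SD on the log2 scale had a median of 0.18 and was under 0.2 for 48 of 81. Kcnn2 had the smallest (0.09) and Kcnk15 the largest (1.55). Fold changes below are limma estimates ± SE of log2(normalized count + 1); for genes with few counts the added 1 makes them smaller than the true change. A gene is called when its adjusted p (Benjamini-Hochberg over 17804 genes) is under 0.05, and "rose" and "fell" are kept for called genes. Averaged over genotypes and sexes, 7 members rose and 3 fell with fluoxetine, where 6.71% and 7.78% of all genes did (14.5% in all). With lithium 12 rose and 10 fell, against 11.4% and 11.2% of all genes (22.6% in all). Between the drugs 17 were higher and 9 lower with fluoxetine, against 16% and 16.9% of all genes (32.9% in all). The members were thus called at shares of 12.3%, 27.2% and 32.1%, near those of all genes. The median fold change of the members was 0.01 with fluoxetine and 0.02 with lithium, and that of all genes was -0.00 with each drug. Both drugs were compared with the same 20 vehicle libraries, so the 2 sets of fold changes are given side by side and are not independent.

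The inward rectifier gene Kcnj4 had the smallest p of all members between the drugs. The normalized count of Kcnj4 (chr15:79483714-79505241, GRCm38) ran from 3018 to 4125 in vehicle (median 3771), from 2930 to 4078 with fluoxetine (median 3218) and from 3569 to 4805 with lithium (median 4100, n = 20 each). By library, HT females had 3892, 3981, 3891, 3713 and 3843 in vehicle, 2959, 3108, 3194, 2951 and 3052 with fluoxetine, and 3766, 3995, 4164, 3569 and 3818 with lithium. HT males had 3169, 4037, 4038, 3764 and 3386 in vehicle, 3525, 3346, 3096, 3218 and 3329 with fluoxetine, and 4085, 4353, 4335, 4718 and 4602 with lithium. In HT mice of either sex the fluoxetine and lithium libraries did not overlap, whereas fluoxetine overlapped vehicle in males and lithium overlapped vehicle in females. WT females had 3018, 4125, 3381, 3949 and 3308 in vehicle, 2930, 3217, 3196, 3286 and 3075 with fluoxetine, and 3859, 4128, 4115, 4197 and 3626 with lithium. WT males had 3659, 3690, 3764, 3813 and 3777 in vehicle, 3709, 4078, 4046, 3395 and 3608 with fluoxetine, and 3643, 3862, 4805, 3703 and 4670 with lithium, so that in WT males alone the 2 drugs overlapped. Kcnj4 fell by 0.16 ± 0.03 with fluoxetine (adjusted p = 0.00076) and rose by 0.14 ± 0.03 with lithium (adjusted p = 0.0015). In females alone it fell with fluoxetine (-0.26 ± 0.05, adjusted p = 0.0007) and had +0.08 ± 0.05 with lithium. In males alone it had -0.07 ± 0.05 with fluoxetine and rose with lithium (+0.20 ± 0.05, adjusted p = 0.0027). The interaction of sex was not called with fluoxetine (+0.18 ± 0.07, adjusted p = 0.28) or lithium (+0.12 ± 0.07, adjusted p = 0.57). With depth as a covariate the lithium call of Kcnj4 was lost (limma adjusted p = 0.057). Between the drugs Kcnj4 was lower by -0.31 ± 0.03 (adjusted p = 1.8e-09), and all 20 fluoxetine libraries lay under the mean of the lithium group of their genotype and sex.

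Its relatives did not follow it. Kcnj2 (chr11:111066164-111076821) ran from 346 to 609 in vehicle (median 406), from 413 to 750 with fluoxetine (median 573) and from 337 to 785 with lithium (median 467). The groups overlapped, but 18 of 20 fluoxetine libraries lay above the vehicle mean of their genotype and sex. Kcnj2 rose by 0.40 ± 0.07 with fluoxetine (adjusted p = 8.6e-05), and its value with lithium was +0.15 ± 0.07 (adjusted p = 0.12). With lithium the sexes parted: in females alone Kcnj2 rose (+0.36 ± 0.10, adjusted p = 0.019) and in males its value was -0.06 ± 0.10, but the interaction of sex was not called (-0.42 ± 0.14, adjusted p = 0.40). Kcnj12 (chr11:61022564-61071131) ran from 304 to 446 in vehicle (median 361), from 322 to 480 with fluoxetine (median 392) and from 369 to 537 with lithium (median 425). It rose by 0.25 ± 0.05 with lithium (adjusted p = 6.7e-05; 19 of 20 libraries higher), while its value with fluoxetine was +0.08 ± 0.05 (adjusted p = 0.29). Between the drugs Kcnj2 was higher with fluoxetine (+0.26 ± 0.07) and Kcnj12 lower (-0.17 ± 0.05), both called.

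Kcnj3 (chr2:55435970-55598145) ran from 3418 to 5096 in vehicle (median 4110), from 3346 to 4450 with fluoxetine (median 4067) and from 2697 to 3952 with lithium (median 3659). Vehicle and fluoxetine overlapped, with the highest library in vehicle, and all 20 lithium libraries lay under the vehicle mean of their genotype and sex. Kcnj3 fell by 0.18 ± 0.04 with lithium (adjusted p = 0.00016) and its value with fluoxetine was -0.02 ± 0.04 (adjusted p = 0.82). Its partner subunits Kcnj9 and Kcnj6 (GIRK2) were not called with either drug, at -0.08 ± 0.04 and +0.04 ± 0.07 with lithium. In females alone Kcnj9 fell with lithium (-0.19 ± 0.06, adjusted p = 0.031), against +0.04 ± 0.06 in males (interaction +0.23 ± 0.08, adjusted p = 0.41). Kcnj11 (chr7:46093953-46100764), the Kir6.2 pore of the ATP-sensitive channel, ran from 844 to 1431 in vehicle (median 1128), from 742 to 1287 with fluoxetine (median 975) and from 721 to 1204 with lithium (median 991). With each drug 17 of 20 libraries lay under the vehicle mean of their group, and it fell by 0.16 ± 0.06 with fluoxetine (adjusted p = 0.041) and by 0.22 ± 0.06 with lithium (adjusted p = 0.0026). Kcnj10, the glial channel, was not called in any of the comparisons over both genotypes (-0.12 ± 0.07 with fluoxetine and -0.00 ± 0.07 with lithium). Kcnj8, the Kir6.1 pore of vascular mural cells, was called only between the drugs (+0.21 ± 0.08).

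**Figure D2:**
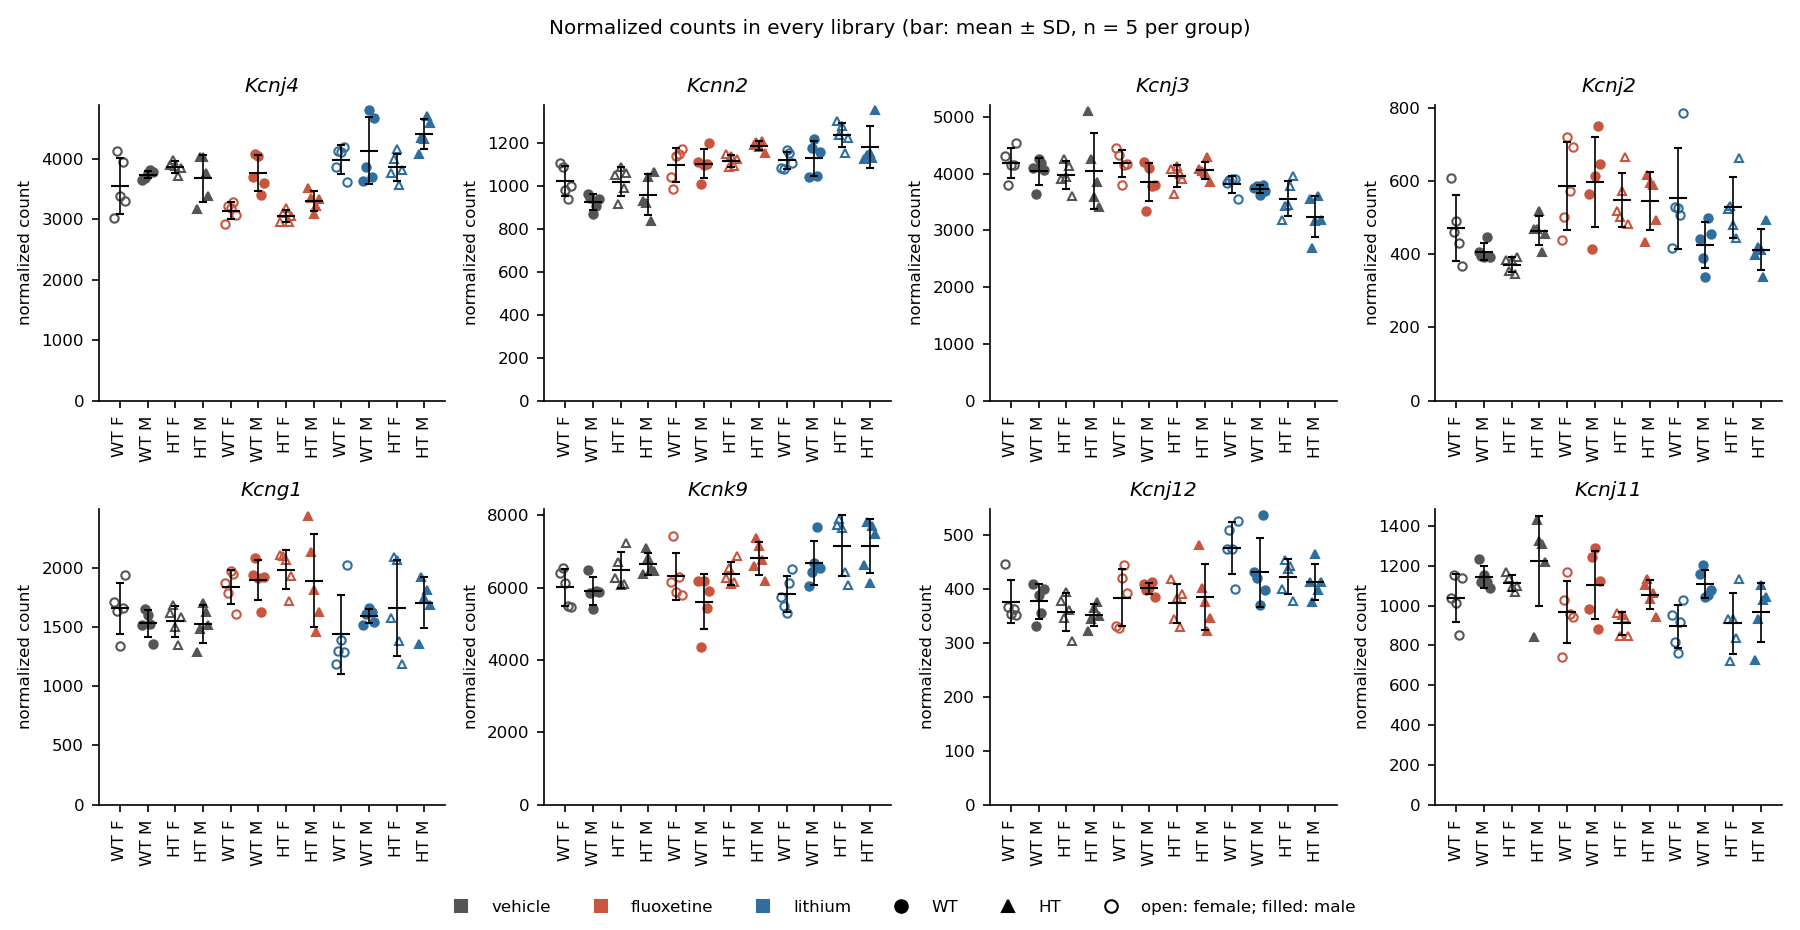
Normalized counts (vertical, from 0) of 8 genes in every library of the 12 groups (horizontal; F female, M male); black bars show the mean ± SD of 5 libraries. Kcnj4 lies lower with fluoxetine than with lithium, with overlap in WT males, Kcnn2 lies higher with both drugs, and Kcnk9 lies higher in libraries labelled HT (median 6615 against 6096 in WT).

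Of the calcium-activated channels, Kcnn2 rose with both drugs. This gene encodes the SK2 channel, which carries part of the afterhyperpolarization and sits in dendritic spines. In vehicle HT females had 1049, 914, 1087, 989 and 1059 normalized counts and HT males 928, 922, 1042, 839 and 1066, while WT females had 1108, 1086, 979, 941 and 1000 and WT males 963, 943, 869, 905 and 941. With fluoxetine HT females had 1146, 1086, 1137, 1092 and 1125, HT males 1188, 1206, 1180, 1211 and 1154, WT females 1044, 985, 1138, 1149 and 1173, and WT males 1111, 1010, 1097, 1102 and 1199. With lithium HT females had 1300, 1237, 1278, 1155 and 1223, HT males 1125, 1144, 1153, 1129 and 1353, WT females 1084, 1080, 1168, 1151 and 1108, and WT males 1041, 1177, 1220, 1045 and 1155. In males of both genotypes neither drug overlapped vehicle, whereas in WT females both drugs did, and in HT females fluoxetine did and lithium did not. Kcnn2 rose by 0.20 ± 0.03 with fluoxetine (adjusted p = 3.5e-06; 19 of 20 libraries higher) and by 0.25 ± 0.03 with lithium (adjusted p = 9.2e-09; 20 of 20 higher). It differed by -0.05 ± 0.03 between the drugs, with a 95% interval of -0.11 to 0.01. The genes A330093E20Rik and AC121957.1 overlap Kcnn2 on the opposite strand, and no source used here says whether reads were counted by strand. Kcnma1, the BK channel, rose with fluoxetine (+0.11 ± 0.04) and had -0.00 ± 0.04 with lithium. Kcnn3 (SK3) fell with lithium (-0.14 ± 0.05), and its value with fluoxetine was +0.11 ± 0.05. By sex, Kcnn3 rose with fluoxetine in females (+0.28 ± 0.07, adjusted p = 0.0055) and had -0.07 ± 0.07 in males, and with lithium it had -0.04 ± 0.07 in females and fell in males (-0.23 ± 0.07, adjusted p = 0.017). Its interaction of sex was not called with fluoxetine (-0.35 ± 0.10, adjusted p = 0.22) or lithium (-0.19 ± 0.10, adjusted p = 0.54). Over both sexes, Kcnma1 and Kcnn3 were higher with fluoxetine than with lithium, Kcnma1 by 0.11 ± 0.04 and Kcnn3 by 0.25 ± 0.05, and Kcnn1 was not called.

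Averaged over genotypes and sexes, all called changes of the leak channels against vehicle were rises. Kcnk1 ran from 2171 to 2828 in vehicle (median 2617), from 2362 to 3057 with fluoxetine (median 2791) and from 2436 to 3177 with lithium (median 2877). The 3 ranges overlapped. Kcnk1 rose by 0.10 ± 0.03 with fluoxetine and by 0.16 ± 0.03 with lithium, but with depth as a covariate the fluoxetine value was -0.0051. Kcnk3 (TASK1), Kcnk4 (TRAAK) and Kcnk13 (THIK1, known from microglia) rose with lithium by 0.13 ± 0.04, 0.14 ± 0.05 and 0.28 ± 0.10, and Kcnk6 rose with fluoxetine by 0.16 ± 0.06. In females alone the lithium value of Kcnk4 was -0.0014, and Kcnk13 was called with lithium in neither sex alone. With depth as a covariate these lithium calls were lost (limma adjusted p = 0.073 for Kcnk1, 0.091 for Kcnk3, 0.24 for Kcnk4 and 0.17 for Kcnk13). Between the drugs Kcnk2 was higher (+0.09 ± 0.03) and Kcnk3 lower (-0.13 ± 0.04) with fluoxetine. The other 5 leak channels were not called over both genotypes and sexes. Of these, Kcnk12 (THIK2) rose with fluoxetine in males alone (+0.54 ± 0.14, adjusted p = 0.021) and had -0.26 ± 0.14 in females. Its interaction of sex and fluoxetine had the smallest p of the members and was not called (+0.80 ± 0.19, adjusted p = 0.18).

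Over both genotypes and sexes, 2 of the 15 Kv1 to Kv4 genes were called against vehicle, Kcna4 and Kcnd1, and both fell. Between the drugs 2 others were called. Kcna4, which encodes the inactivating Kv1.4, ran from 428 to 680 in vehicle (median 564), from 354 to 598 with fluoxetine (median 502) and from 361 to 642 with lithium (median 475), and fell by 0.17 ± 0.06 with fluoxetine and by 0.20 ± 0.06 with lithium. In males alone it fell by 0.30 ± 0.09 and 0.36 ± 0.09, and in females alone both values were -0.04 ± 0.09, with neither interaction called (adjusted p = 0.38 and 0.44). Kcnd1 (Kv4.1), on chromosome X, ran from 299 to 483 in vehicle (median 395) and from 275 to 407 with lithium (median 350), and fell by 0.20 ± 0.05 with lithium. In males alone Kcnd1 fell with lithium (-0.29 ± 0.06, adjusted p = 0.0011) and in females it had -0.11 ± 0.06 (interaction not called, adjusted p = 0.52). The 4 Kv3 genes (Kcnc1 to Kcnc4) were not called against vehicle. Between the drugs Kcna2 was higher (+0.09 ± 0.04) and Kcnc1 lower (-0.10 ± 0.04) with fluoxetine.

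The M-current and ether-a-go-go families parted between the drugs. Kcnq3 ran from 5845 to 8510 normalized counts in vehicle (median 6948), from 4811 to 9143 with fluoxetine (median 7767) and from 5134 to 7589 with lithium (median 6402). Kcnq5 ran from 2588 to 3840 in vehicle (median 3181), from 2799 to 4050 with fluoxetine (median 3425) and from 2417 to 3511 with lithium (median 2855). For both genes the median was highest with fluoxetine and lowest with lithium, and all ranges overlapped. Kcnq3 and Kcnq5 fell with lithium (-0.15 ± 0.05 and -0.13 ± 0.05), had +0.14 ± 0.05 and +0.11 ± 0.05 with fluoxetine (not called), and were higher with fluoxetine than with lithium by 0.28 ± 0.05 (adjusted p = 1.9e-05) and 0.24 ± 0.05 (adjusted p = 5.7e-05). Kcnq1, at 8.62 counts per kb, was also higher with fluoxetine than with lithium (+0.53 ± 0.14), and it overlaps the antisense gene Kcnq1ot1. In the Kcnh family Kcnh5 fell with lithium (-0.22 ± 0.08), as did Kcnh8 (-0.55 ± 0.19), a gene at 3.62 counts per kb, while Kcnh4 rose (+0.18 ± 0.05). In males alone each of these was called (-0.35 ± 0.11, -0.90 ± 0.27 and +0.31 ± 0.08). In females alone none was (-0.09 ± 0.11, -0.19 ± 0.27 and +0.05 ± 0.08), and no interaction of sex was called (adjusted p = 0.57, 0.55 and 0.48). Kcnh5 and Kcnh7 were higher with fluoxetine than with lithium (+0.27 ± 0.08 and +0.22 ± 0.05). Over both genotypes and sexes no Kcnh gene was called with fluoxetine against vehicle, though Kcnh3 fell in females alone (-0.21 ± 0.06, adjusted p = 0.022).

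Of the 25 other members, Kcng1 had the smallest p with fluoxetine. It encodes Kv6.1, a silent subunit that modifies Kv2 channels. It ran from 1286 to 1937 in vehicle (median 1592), from 1455 to 2433 with fluoxetine (median 1922) and from 1187 to 2091 with lithium (median 1593), and 18 of 20 fluoxetine libraries lay above the vehicle mean of their group. Kcng1 (chr2:168260117-168281736) rose by 0.28 ± 0.06 with fluoxetine (adjusted p = 0.0012), against +0.02 ± 0.06 with lithium. Kcnip4, which binds Kv4 channels, rose with fluoxetine (+0.14 ± 0.05) and had -0.10 ± 0.05 with lithium. With lithium Kcnip3 (+0.12 ± 0.04), Kcnf1 (+0.08 ± 0.03), Kcng2 (+0.13 ± 0.05) and Kcnrg (+0.75 ± 0.17) rose, and Kcnt2, a sodium-activated channel, fell (-0.20 ± 0.06). By sex, Kcng2 and Kcnip3 were called with lithium in males alone (+0.25 ± 0.07 and +0.20 ± 0.06) and not in females (+0.02 ± 0.07 and +0.05 ± 0.06). Kcnrg was called in females alone (+0.88 ± 0.24, against +0.61 ± 0.24 in males), and Kcnf1 and Kcnt2 in neither sex alone. Kcnrg had 2.1 to 14.4 normalized counts in vehicle and 7.6 to 21.8 with lithium, and it overlaps the antisense gene Dleu2. Between the drugs Kcnt2 was higher with fluoxetine by 0.34 ± 0.06 (adjusted p = 2.9e-05), as were Kcnip4 (+0.24 ± 0.05), Kcng1 (+0.26 ± 0.06), Kcnmb4 (+0.17 ± 0.04) and Kcnmb1 (+0.31 ± 0.10), a gene that lies inside Kcnip1. Kcne4 (-0.43 ± 0.11), Kcnab3 (-0.29 ± 0.08), Kcnu1 (-0.19 ± 0.07), Kcnt1 (-0.12 ± 0.03) and Kcnf1 (-0.10 ± 0.03) were lower with fluoxetine. In all, 5 members were called with both drugs against vehicle: Kcnn2 and Kcnk1 rose with both, Kcna4 and Kcnj11 fell with both, and Kcnj4 moved in opposite directions. Without the 2 libraries in doubt, named below, the fluoxetine calls of Kcnk1 (+0.08, adjusted p = 0.064) and Kcna4 (-0.13, adjusted p = 0.10) were lost.

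**Figure D3:**
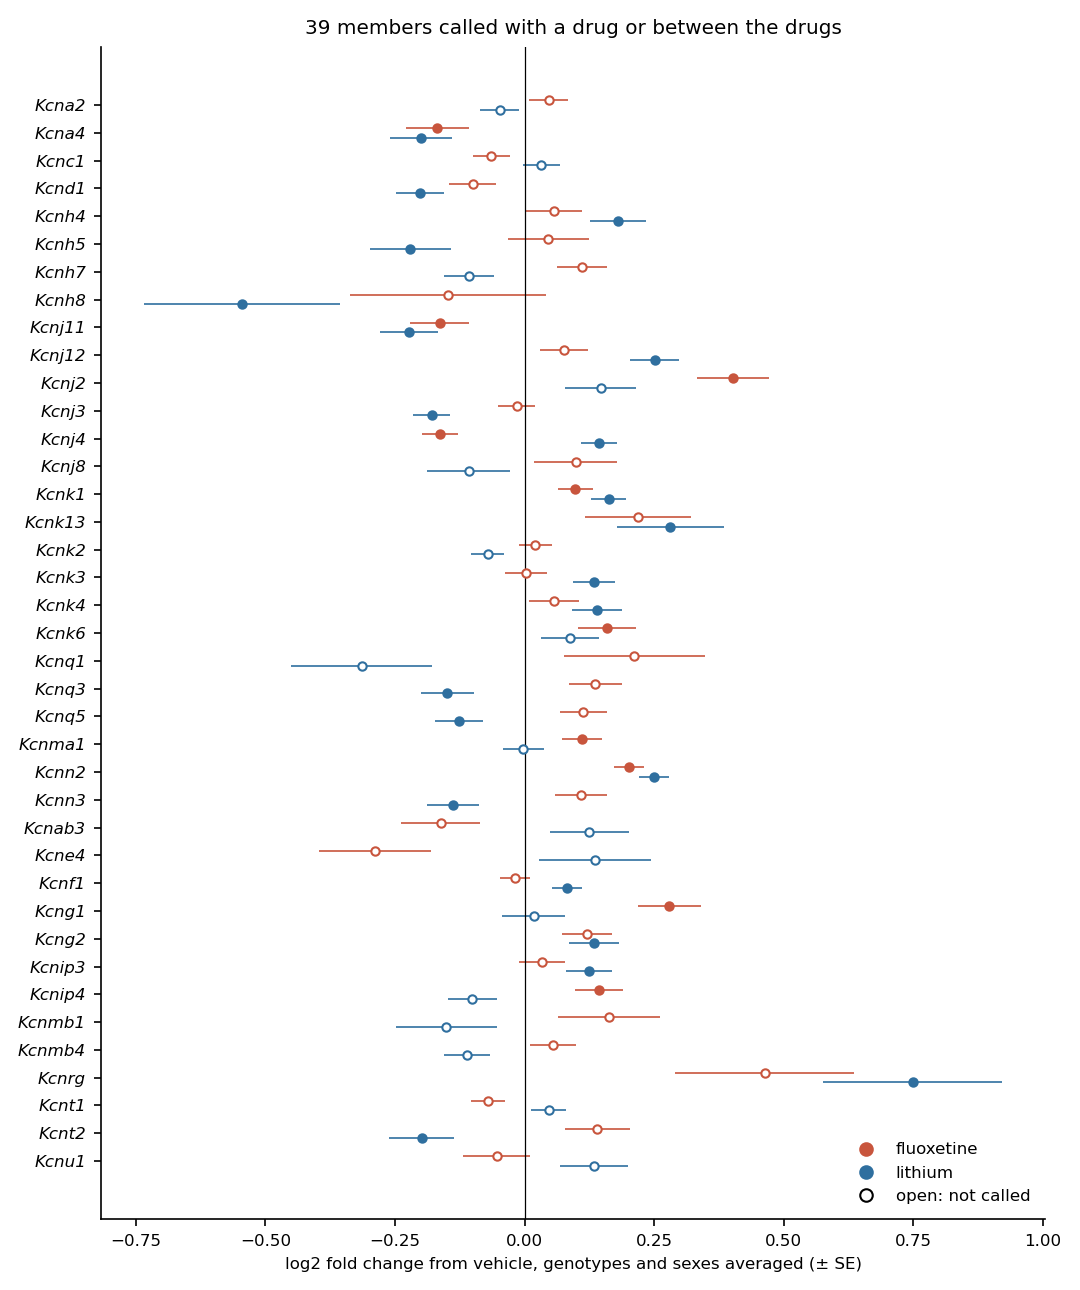
Log2 fold change from vehicle ± SE (horizontal) for the 39 members called with a drug or between the drugs (vertical, by class), with fluoxetine in red and lithium in blue; filled points were called at an adjusted p under 0.05. Kcnn2 lies at +0.20 and +0.25, Kcnj4 at -0.16 and +0.14, and Kcnq3, Kcnq5 and Kcnt2 lie above 0 with fluoxetine and below 0 with lithium.

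The drug responses were called more often in libraries labelled HT, but no difference between genotypes was. With fluoxetine 9 members were called in HT (10.2% of all genes) and 2 in WT (0.208%), namely Kcnn2 (+0.22 ± 0.04 in HT and +0.18 ± 0.04 in WT) and Kcnj2 (+0.39 ± 0.10 and +0.42 ± 0.10). With lithium 11 were called in HT (14.6% of all genes) and 4 in WT (4.57%): Kcnn2 (+0.21 ± 0.04 in WT), Kcnj12 (+0.26 ± 0.07), Kcnk1 (+0.18 ± 0.05) and Kcnq1 (-0.69 ± 0.19). Called in HT but not over both genotypes were Kcns2 (-0.16 ± 0.05) and Kcne4 (-0.48 ± 0.15) with fluoxetine and Kcnab1 (-0.29 ± 0.08) and Kcnj5 (-1.09 ± 0.35) with lithium. By limma 0 members were called for the interaction of genotype with fluoxetine (0% of all genes) or with lithium (0%), with 3 and 5 at an unadjusted p under 0.05, where 4.41% and 5.59% of all genes were. The smallest p belonged in both to Kcns2, a silent Kv subunit, at -0.32 ± 0.07 (adjusted p = 0.33) and -0.23 ± 0.07 (adjusted p = 0.85). For Kcnn2 the interaction was 0.05 ± 0.06 with fluoxetine (95% interval -0.07 to 0.16) and 0.08 ± 0.06 with lithium (-0.03 to 0.20).

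Within 1 genotype and sex, HT males given lithium had the most calls. There 14 members were called, 3 higher and 11 lower, against 6.61% and 6.58% of all genes (13.2% in all). Striatal markers moved there too: their summed count was 5395 to 7002 in these libraries and 4481 to 16109 in HT vehicle males, and their part in the result was not tested. Those higher were Kcnn2 (+0.30 ± 0.06), Kcnj4 (+0.27 ± 0.07) and Kcnf1 (+0.20 ± 0.06). Those lower included Kcnab1 (-0.52 ± 0.12), Kcnt2 (-0.42 ± 0.12), Kcnq5 (-0.38 ± 0.09), Kcnq3 (-0.38 ± 0.10), Kcnd1 (-0.34 ± 0.09) and Kcnj3 (-0.31 ± 0.07). In WT males given lithium 4 were called (1.75% of all genes), Kcnn2, Kcnk1, Kcnh4 and Kcnh8. With fluoxetine HT females gave 2 calls, Kcnj2 and Kcnj4 (6.86% of all genes), and HT males 1, Kcnn2 (0.595%), and with lithium HT females gave 1, Kcnn2 (1.23%). The other 3 such comparisons gave 0, in WT females with fluoxetine (0%) and lithium (0.814%) and in WT males with fluoxetine (0.0786%). Averaged over genotypes, lithium gave 17 calls among males (15.8% of all genes) and 7 among females (6.27%). Kcnn2 rose in both (+0.29 ± 0.04 and +0.21 ± 0.04), as did Kcnj12 (+0.21 ± 0.07 and +0.29 ± 0.07). The interaction of sex gave 0 calls with either drug (0.0112% of all genes each), with 12 members at an unadjusted p under 0.05 for fluoxetine (11.7% of all genes) and 11 for lithium (9.59%), and DESeq2 gave 1 and 0 calls. Over all groups 2 members were higher in males, Kcnj11 (+0.18 ± 0.05, adjusted p = 0.040) and Kcnj4 (+0.10 ± 0.03, adjusted p = 0.049), where 0.769% of all genes were. Neither call held with each library left out, and without HT vehicle male replicate 1 there were 9 calls. No share of all genes is given for that fit, so its count cannot be read as particular to the members.

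**Figure D4:**
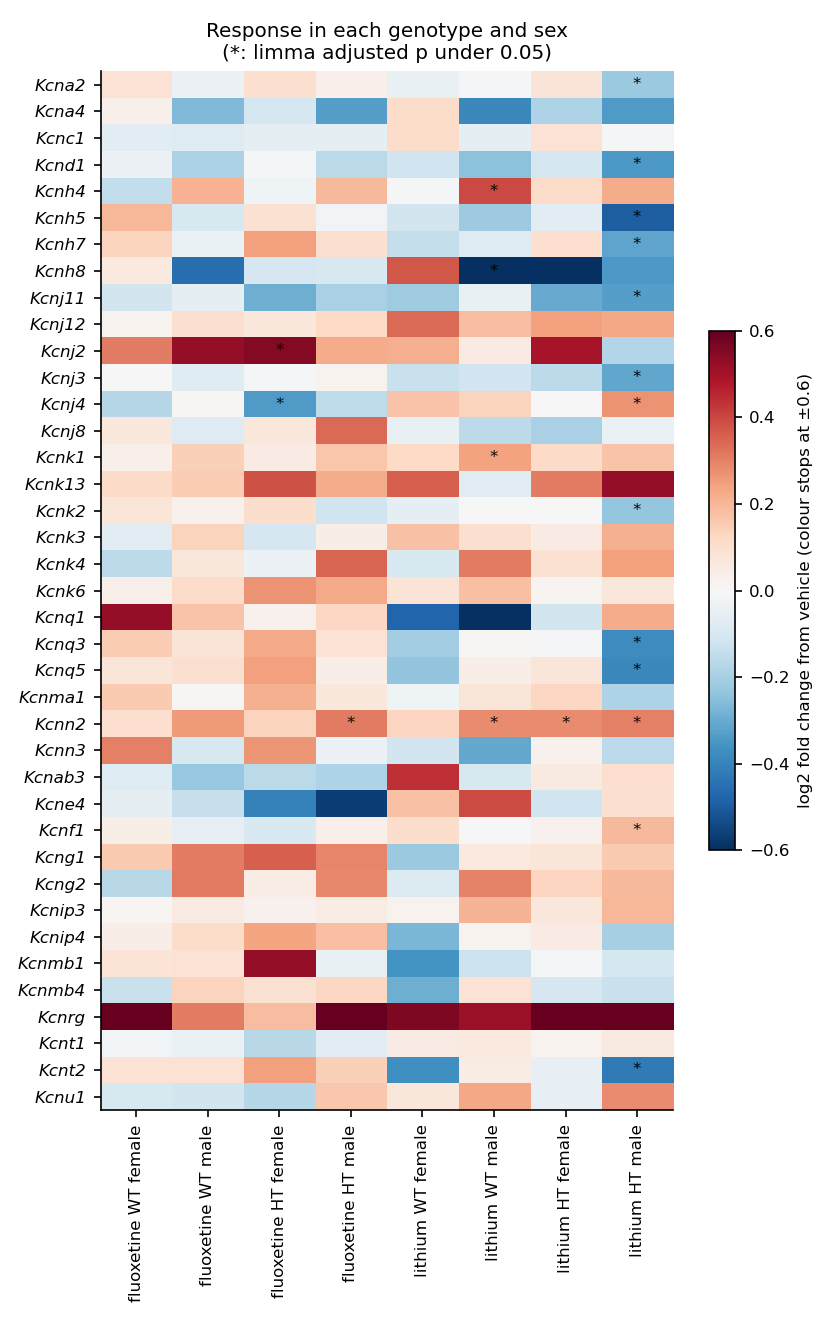
Log2 fold change from vehicle (colour, stopped at 0.6 either way) of the same 39 members (vertical) in each genotype and sex (horizontal), with an asterisk where the adjusted p was under 0.05. Kcnn2 is above 0 in all 8 columns, and the column of HT males given lithium holds most asterisks.

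Between genotypes within a treatment no member was called by limma: 0 in vehicle (0.152% of all genes), 0 with fluoxetine (0.135%) and 0 with lithium (0.573%), with 12, 10 and 13 at an unadjusted p under 0.05 (8.85%, 11.5% and 13.2% of all genes) and 0, 1 and 1 called by DESeq2. The smallest p-values belonged to Kcna5 (+0.50 ± 0.14, adjusted p = 0.13) in vehicle, Kcns2 (-0.20 ± 0.05, adjusted p = 0.065) with fluoxetine and Kcnk9 (+0.20 ± 0.06, adjusted p = 0.096) with lithium. Averaged over treatments 6 members were called, 3 higher and 3 lower in HT, against 2.52% and 2.53% of all genes (5.06% in all). Kcnk9 (chr15:72501089-72546340), which encodes the acid-sensitive leak channel TASK3, ran from 6063 to 7903 normalized counts in HT (median 6615) and from 4358 to 7679 in WT (median 6096, n = 30 each). The ranges overlapped, and 25 of 30 HT libraries lay above the WT mean of their treatment and sex. Kcnk9 was higher in HT by 0.16 ± 0.03 (adjusted p = 0.0014), with +0.14 ± 0.06 in vehicle, +0.16 ± 0.06 with fluoxetine and +0.20 ± 0.06 with lithium. Kcng4, a silent subunit, ran from 85.2 to 255 in HT (median 167) and from 128 to 240 in WT (median 189), and was lower in HT (-0.32 ± 0.08, adjusted p = 0.010). Kcnab3 (-0.22 ± 0.06) and Kcng2 (-0.14 ± 0.04) were also lower, and Kcna5 (Kv1.5, +0.27 ± 0.08) and Kcnq3 (+0.14 ± 0.04) higher. Olfactory bulb markers were lower in HT by a median of -0.73, with 0 of 6 called. With the scores of olfactory bulb, striatal and oligodendrocyte markers as covariates 13 members were called, among them Kcnab2 (-0.15), Kcnn1 (-0.15) and Kcnh1 (-0.10), and Kcnq3 was not. Kcnab3 then had -0.14 in place of -0.22. Shares of all genes called in this fit or by DESeq2 are not given here. The rise from 6 to 13 can therefore not be read as particular to the members.

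Many members varied with the olfactory bulb marker score (mean log2(normalized count + 1) of Eomes, Cdhr1, Doc2g, Th, Tbx21 and Sp8) among libraries of the same group. Of 81 members 32 had an absolute Pearson r of at least 0.5 between the deviations of gene and score from their group means, 13 positive and 19 negative, or 39.5%, against 15.6% of all genes. Kcnk15, a low leak channel gene, ran from 0 to 66.8 normalized counts and had r = 0.94 and Spearman rho = 0.95 over the 60 libraries (r = 0.94 without the 2 libraries farthest from the median score). Kcnab3, an auxiliary subunit, had r = 0.86 and rho = 0.86 (0.84 without those 2), and Kcnc4 had r = -0.85 and rho = -0.84 (-0.84). Kcnip1 (r = 0.85) and Kcnb2 (0.82) also went up with the score, and Kcnh1 (-0.76) and Kcnab1 (-0.75) down. Each of these had an adjusted permutation p of 8.1e-05 for r, from a raw p of 1e-05 that is the smallest 100000 permutations can give, over 243 relations of 81 members with 3 marker lists. For striatal markers 2 of 81 members (2.47%) and for oligodendrocyte markers 5 (6.17%) reached 0.5, against 3.59% and 6.15% of all genes. Weaker relations were more common. By the adjusted permutation p 47 of 81 members passed for bulb, 28 for oligodendrocyte and 22 for striatal markers, with no share of all genes at hand. Some of these genes were also called with a drug. Kcnab3 (r = 0.86) was called between the drugs and Kcnab1 (r = -0.75) with lithium in HT. Among other genes called with a drug, r with the bulb score was -0.20 for Kcnn2, -0.10 for Kcnj2, 0.01 for Kcnj12, 0.26 for Kcnj3 and -0.43 for Kcnj4. Other called genes are not listed here, and the part of bulb tissue in the drug responses was not tested.

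**Figure D5:**
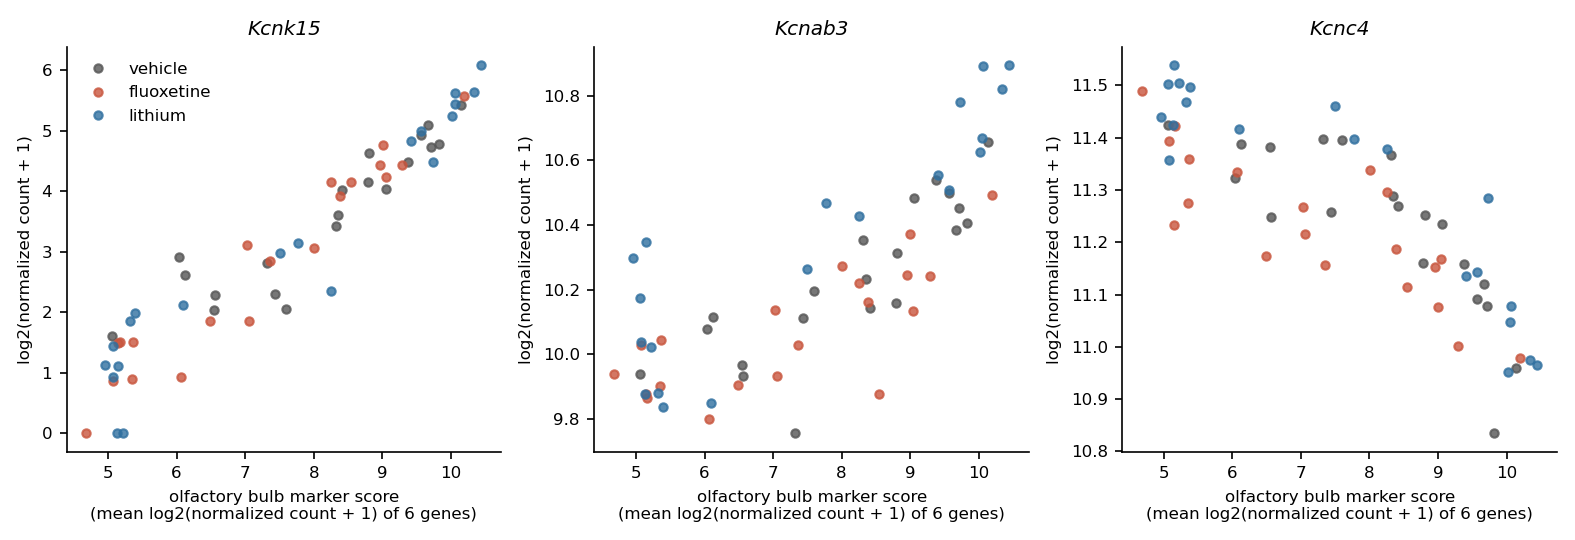
Level of Kcnk15, Kcnab3 and Kcnc4 (vertical, log2(normalized count + 1)) against the olfactory bulb marker score (horizontal, same scale) in each of the 60 libraries, coloured by treatment (vehicle grey, fluoxetine red, lithium blue). Kcnk15 and Kcnab3 go up with the score and Kcnc4 goes down, in libraries of all 3 treatments.

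Markers and depth moved with the drugs as well. With lithium 5 of 8 striatal markers fell (median of the list -0.45) and 5 of 6 oligodendrocyte markers fell (median -0.34), and the summed striatal count was 4817 to 7002 in HT lithium against 4481 to 16109 in HT vehicle libraries. With all 3 marker scores as covariates 26 members were called with lithium and 12 with fluoxetine, and Kcnn2 rose by 0.25 and 0.19. With depth as a covariate 6 members were called with lithium, among them Kcnn2, Kcnj12, Kcnj3, Kcnj11 and Kcnrg, and 1 with fluoxetine, Kcnj4 (-0.21, adjusted p = 0.046). For fluoxetine Kcnn2 then had +0.14 (adjusted p = 0.12) and Kcnj2 +0.35 (adjusted p = 0.11). Since fluoxetine and vehicle libraries did not overlap in depth, the drug and depth cannot be told apart there. The same holds for lithium in females, whose libraries (32.1 to 35.9 M reads) were all deeper than those of vehicle females (26.6 to 31.0 M). With reads thinned to the shallowest library 20 members were called with lithium and 8 with fluoxetine. No share of all genes is given for the alternative fits in this paragraph, so their counts cannot be read as particular to the members. One library stood apart: WT fluoxetine male replicate 2 had 7.38 normalized counts of Kcng3, where the other 4 of its group had 66.1 to 105, and 236 of Kcnh5 against 647 to 749. Without it 22 members were called with fluoxetine rather than 10, and without it and HT vehicle male replicate 1 there were 23. These added Kcng3 (+0.45), Kcnj6 (+0.23), Kcnd3 (+0.18), Kcnq3 (+0.17) and Kcnh7 (+0.16) among others and lost Kcnk1 and Kcna4. Kcng3 was a ground for setting WT fluoxetine male replicate 2 apart, so its gain follows from that choice. No ground for doubting HT vehicle male replicate 1 is given here.

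Genes that work with the channels were followed in a list of 34, of which 32 were tested. With fluoxetine 4 rose and 0 fell, where 6.71% and 7.78% of all genes did. They were Abcc9 (+0.34 ± 0.05), the sulfonylurea receptor that pairs with Kir6.1 in mural cells, Nedd4l (+0.19 ± 0.04), a ubiquitin ligase that acts on Kv7 channels, Vapa (+0.10 ± 0.03), which gathers Kv2 channels at contacts with the endoplasmic reticulum, and Rgs7 (+0.08 ± 0.03), which speeds the closing of GIRK channels. Of 4 mural cell markers, 2 also rose with fluoxetine; their part in the value of Abcc9 was not tested. With lithium 0 rose and 9 fell, where 11.4% and 11.2% of all genes did, and the list had a median of -0.05 against -0.00 for all genes. They were Cntnap2 (-0.15 ± 0.03), Cntn2 (-0.21 ± 0.06), Adam23 (-0.13 ± 0.04), Adam22 (-0.08 ± 0.03) and Lgi2 (-0.16 ± 0.04), which belong to or bind the axonal Kv1 complex, Ank3 (-0.17 ± 0.04), which anchors Kv7 channels at the axon initial segment, Abcc8 (-0.15 ± 0.05), the receptor that pairs with Kir6.2, Amigo1 (-0.07 ± 0.03), a Kv2 subunit, and Dpp6 (-0.06 ± 0.02), a Kv4 subunit. Cntn2 is also made by oligodendrocytes, whose markers fell with lithium as given above; their part in this was not tested. Between genotypes Abcc8 was higher in HT (+0.15 ± 0.04), where 2.52% of all genes were, and Vapb, Calm2 and Calm3 were lower (-0.08 ± 0.02, -0.11 ± 0.03 and -0.11 ± 0.03), where 2.53% were. Of 20 genes for other potassium transport, 2 rose and 1 fell with fluoxetine (14.5% of all genes called) and 2 rose and 4 fell with lithium (22.6%), shares near those of all genes. Trpm4 fell with both drugs (-0.23 ± 0.05 and -0.26 ± 0.05), and Hcn3, a channel opened by hyperpolarization, rose with lithium (+0.20 ± 0.04). Slc24a3 rose with fluoxetine (+0.10 ± 0.03) and fell with lithium (-0.10 ± 0.03), and Slc12a2 (-0.15 ± 0.04) and Nalcn (-0.12 ± 0.03) fell with lithium.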

How the data were processed

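RNA from the prefrontal cortex of 60 mice was sequenced after TruSeq Stranded mRNA preparation, per the labels' protocols. The deposited signal values are read counts per gene that the authors divided by 1 size factor per library; the submitters' processing notes name Salmon 0.11.2, R 3.6.0, DESeq2 1.19.11 and GRCm38. Dividing by the smallest step gave whole reads for 100% of values within 0.01, and the implied size factors lay between 0.85 and 1.25. GENCODE held 18077 of the IDs and lacked 11.

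The filter kept 17804 genes (10 or more normalized counts in 5 or more libraries). Their log2(normalized count + 1) values went into limma-trend (limma 3.58.1, R 4.3.3), with 1 mean per group, 48 residual degrees of freedom, two-sided tests and Benjamini-Hochberg adjustment. The steps were tested on simulated data. Members and gene lists were chosen with earlier results of these data known. Named are all called members (the 24 of smallest p where more were called, to which the others were added after their values were seen), the 3 of smallest p where fewer than 3 were called, and by level the 3 highest and the lowest of each class; a few genes are not reported here. Values per library are given for 8 members of smallest p. Alternatives were TMM, no filter, a pseudocount of 0.5 or 5, the recovered reads in edgeR 4.0.16 or DESeq2 1.42.0, covariates for depth and for marker scores, a replicate block and libraries left out; thinning of reads and fits for 1 sex were chosen after seeing the data. The setting for strand is not given in the sources used here; 20 of 81 members overlap a measured gene on the other strand.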

Additional observations from a re-analysis of the deposited data

Results flagged for a closer look

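Among 96 groups of 5 libraries (8 genes in 12 groups), 5 held a library whose gap to the nearest of the others exceeded Dixon's 95% critical value; chance flags about 1 in 20 groups. Kcnn2 was 1353 normalized counts in HT lithium male replicate 5, where the other 4 libraries had 1125 to 1153. Kcnj3 was 3549 in WT lithium female replicate 5, against 3828 to 3912. The same library had 2020 for Kcng1, against 1189 to 1389. Kcnj2 was 446 in WT vehicle male replicate 4, against 392 to 405, and Kcnj12 was 446 in WT vehicle female replicate 1, against 351 to 365. The calls of Kcnn2, Kcnj3 and Kcnj12 with lithium and of Kcnj2 and Kcng1 with fluoxetine, over both genotypes, held with each of these libraries left out.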

How the results depend on the processing

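Depth, marker scores and 2 libraries moved the counts of called members most. Shares of all genes are not given for these fits, so whether other genes moved alike is left unsaid. With depth as a covariate the counts were 2 with fluoxetine in HT, 0 in WT and 1 over both genotypes, and 6, 2 and 6 with lithium; Kcnk1 with fluoxetine turned to -0.0051. With marker scores as covariates they were 2, 1 and 13 between genotypes with fluoxetine, with lithium and over all treatments, 0 with fluoxetine in WT, 7 with lithium in WT and 0 between sexes. Without the 2 libraries in doubt (WT fluoxetine male replicate 2 and HT vehicle male replicate 1) they were 1 between genotypes with fluoxetine, 14, 5 and 23 with fluoxetine in HT, in WT and over both, and 5 between sexes. DESeq2 called 1 between genotypes with fluoxetine, 1 with lithium and 1 for the interaction of sex with fluoxetine, and TMM 1 between sexes. Thinned reads gave 0 with fluoxetine in WT and 1 between sexes. Males alone gave 6 calls with fluoxetine and females alone 7 with lithium, where Kcnk4 had -0.0014; the cause was not tested. Of the 22 lithium calls over both genotypes 12 held with each library left out. Of the 10 fluoxetine calls 4 did (Kcnn2, Kcnj2, Kcnj4 and Kcng1), and of 24 named calls between the drugs 23. Fewer held in the other settings: 5 of the 22, 1 of the 10 (Kcnj4) and 18 of the 24. Of the 6 genotype calls over all treatments Kcnab3, Kcnk9, Kcng4 and Kcng2 held with each library left out. Kcnab3, Kcnk9, Kcng4 and Kcna5 held in the other settings.

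With 1 library left out the counts ran from 0 to 1 between genotypes in vehicle, 0 to 0 with fluoxetine, 0 to 1 with lithium and 4 to 9 over all treatments; from 4 (without HT vehicle female replicate 1) to 11 with fluoxetine in HT, 0 to 5 in WT and 6 to 22 over both; from 8 to 15 with lithium in HT, 3 to 6 in WT and 18 to 24 over both; from 23 to 28 between the drugs, 0 to 0 for the 4 interactions and 0 to 9 between sexes. The highest count came without WT fluoxetine male replicate 2 for fluoxetine in WT and over both, and without HT vehicle male replicate 1 between sexes. Shares of all genes are not given for the fits with a library left out. Same-numbered libraries did not deviate together (70 of 330 pairs over a correlation of 0.1; 12 of 60 libraries best with their own number), so the numbers do not pair the libraries. A replicate block gave 5 calls between genotypes over all treatments, 9 with fluoxetine and 23 with lithium over both genotypes, 12 and 5 with lithium in HT and WT, and the main counts elsewhere.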
